A study of Caenorhabditis elegans with 2 samples.

Results

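The homeobox regulator genes of the nematode Caenorhabditis elegans were examined for signal of the T-box protein TBX-37 in early embryos. They were chosen by symbol: the protein-coding genes named ceh-, leaving out ceh-2, ceh-22, ceh-24, ceh-34 and ceh-36, together with cux-7, lin-11, mec-3, ttx-1, ttx-3, lim-4, lim-7, unc-4, unc-30, unc-42, unc-86, vab-3 and vab-7. This gave 71 of 19973 protein-coding genes. All embryos came from strain RW12282, in which the genome insertion st12282 on chromosome III adds TY1, EGFP and 3xFLAG tags to the endogenous tbx-37 gene, and they were taken at 0 hours by egg bleaching. Chromatin from 2 biological replicates in 1 group was sheared and precipitated, with an antibody against GFP by the description of the samples, while their antibody label names tbx-37. There is no second condition to compare. Whole embryos were used, and binding in a few cells cannot be told apart from weak binding in many.

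Homeobox genes encode transcription factors that bind DNA through a homeodomain, and in the nematode they set cell fates and above all the identities of neuron classes. They are sorted into classes such as CUT, LIM, POU, TALE, paired-like and NK by their homeodomain and by further domains that some of them carry. TBX-37 acts with its paralog TBX-38 in the anterior part of the AB lineage, which gives rise to pharynx, neurons and epidermis.

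One member did not match its label. The gene with the Ensembl symbol cux-7 (WBGene00000854, III:7518628–7520845, minus strand) has the name akap-17A and the product RRM domain-containing protein in the RefSeq annotation, an RNA recognition motif and not a homeodomain. It also carried the strongest peak among the members, so the main counts are given with it and for the 70 genes without it. Where no count without cux-7 is given, it is included. All 71 matched a RefSeq gene by identifier, and 64 had a product name with the letters homeo. The other 6 without them were lin-11, mec-3, unc-86, vab-3, ceh-48 and ceh-49, whose proteins are known homeodomain factors.

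The sequences below show what lies under the peaks near ceh-39 and ceh-89, at the starts of cux-7 and ceh-57, and around the T-box words of 3 further members. Coordinates are 1-based on WBcel235, which is ce11, and each sequence is written 5′ to 3′ on the strand of the member gene. Capitals mark words searched on both strands: AGGTGTGA, a consensus for T-box proteins, its core GGTGTG, the homeodomain site TAATTA, the repeat GAGAGA, the GC box (the letters GGGCGG), and, at the summits of ceh-39, ceh-89, ceh-57 and cux-7 only, also GTTCGANTC, the core of the internal B box of transfer RNA (tRNA) genes. The windows of 100 bp each side of the summits upstream of ceh-39 (X:1858760-1858960, minus strand) and ceh-89 (X:14136883-14137083, plus strand) are shown because each summit lies inside a tRNA gene, and the capitals are the B box core on the opposite strand.
ceh-39: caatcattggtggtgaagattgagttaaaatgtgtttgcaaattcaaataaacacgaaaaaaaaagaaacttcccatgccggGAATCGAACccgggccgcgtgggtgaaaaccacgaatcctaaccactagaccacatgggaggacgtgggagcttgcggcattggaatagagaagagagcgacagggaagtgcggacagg
ceh-89: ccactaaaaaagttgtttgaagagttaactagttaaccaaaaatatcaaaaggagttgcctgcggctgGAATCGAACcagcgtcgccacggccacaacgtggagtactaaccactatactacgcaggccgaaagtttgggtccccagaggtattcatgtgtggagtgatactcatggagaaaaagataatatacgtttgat
Sequence at the starts of cux-7 (III:7520846-7520940, minus strand) and ceh-57 (II:10367297-10367469, minus strand) is shown because their strongest candidates lie at the gene start, and neither stretch holds a searched word. For cux-7 it is the sequence just upstream of the start, beside the summit.
cux-7: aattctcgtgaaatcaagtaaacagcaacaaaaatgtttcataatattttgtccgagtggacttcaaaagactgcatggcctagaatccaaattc
ceh-57: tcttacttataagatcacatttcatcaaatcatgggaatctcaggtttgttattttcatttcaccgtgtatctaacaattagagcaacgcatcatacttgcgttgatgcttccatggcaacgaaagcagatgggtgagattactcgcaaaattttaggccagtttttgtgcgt
The stretches around the AGGTGTGA words of ceh-16 (III:8622551-8622678, plus strand), ceh-54 (X:6194151-6194278, minus strand) and ceh-7 (II:8703851-8703978, minus strand) are shown because these genes hold the full T-box word near their start. In ceh-16 the word shares its opening A with the end of a homeodomain site, and in ceh-54 it reads on the opposite strand.
ceh-16: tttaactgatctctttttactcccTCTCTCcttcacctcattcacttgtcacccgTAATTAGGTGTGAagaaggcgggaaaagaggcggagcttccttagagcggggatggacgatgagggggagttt
ceh-54: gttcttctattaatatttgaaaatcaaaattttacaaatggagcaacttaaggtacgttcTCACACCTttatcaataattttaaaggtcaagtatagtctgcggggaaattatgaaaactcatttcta
ceh-7: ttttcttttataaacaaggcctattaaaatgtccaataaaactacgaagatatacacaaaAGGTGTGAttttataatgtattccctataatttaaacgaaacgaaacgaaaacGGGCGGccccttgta

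Few homeobox genes had a TBX-37 peak near their start. The conservative list, which the authors made from both replicates and which holds 1107 peaks, had a summit within 5000 bp of the start of 4 of 71 members (5.63%, exact 95% binomial interval 1.56 to 13.8). Of all protein-coding genes 11.8% had one. Without cux-7 the count was 3 of 70 (4.29%, interval 0.893 to 12.02). The share of all genes lay inside both intervals, which cover counting error over genes only. The other series-wide list, made from parts of the pooled reads, had 5 of 71 members (7.04%, interval 2.33 to 15.7) against 11.3% of all genes. The own list of replicate 1 had 2 (2.82%, interval 0.343 to 9.81) against 5.99%, and that of replicate 2 had 5 (7.04%) against 9.19%. Without cux-7 the other series-wide list had 4 of 70 (5.71%). The own list of replicate 1 then had 1 (1.43%) and that of replicate 2 had 4 (5.71%). The share of members was below that of all genes in each of the 4 lists, which differ in length, and the depth of each replicate is unknown. No summit lay within 5000 bp of 66 members in any of the 4 lists.

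The 4 genes with a conservative peak were cux-7, ceh-39, ceh-5 and ceh-45, and ceh-89 had one in the other series-wide list. Signal values are the score that the authors' peak caller wrote for each region, and they are compared within a list only. At cux-7 the peak at III:7520770–7520930 had its summit 5 bp inside the gene and a signal value of 360, rank 26 of 1107. Its values were 155 in replicate 1 (rank 17 of 538) and 216 in replicate 2 (rank 37 of 817), so it was among the strong peaks of both. With cux-7 set aside, none of the other 70 members had a conservative summit within 1000 or 2000 bp of its start (0 of 70, interval up to 5.13%), against 4.55% and 6.47% of all genes.

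Upstream of ceh-39 (WBGene00000460, X:1853874–1856172, minus strand), a ONECUT gene that acts as a signal of X chromosome number in sex determination, the peak at X:1858732–1858987 had a signal value of 216 and rank 151. In the own lists it had 83.8 in replicate 1 (rank 135) and 130 in replicate 2 (rank 163), the second member with a peak in both. Its summit lay 2688 bp upstream, inside a tRNA-Glu gene (X:1858819–1858890, plus strand), and 1862 bp from the nearest start, that of T26C11.8. The same summit is 6124 bp from the start of the neighbouring ONECUT gene ceh-21, whose own strongest candidate (61.5) is the second strongest of ceh-39, 2396 bp past its start. The ceh-89 summit was also inside a tRNA gene, for tRNA-His (X:14136939–14137010, minus strand), 4963 bp upstream. It had a signal value of 83.7 in the other series-wide list and 56.8 in replicate 2, and was absent from the list of replicate 1. In the ranking behind the conservative list its irreproducible discovery rate (IDR, the estimated share of irreproducible calls among candidates ranked as high or higher) was 0.0101, beside a threshold close to 0.01.

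The peaks of the other pair of genes lay on chromosome I, and the own list of replicate 1 held neither. Near ceh-5 (WBGene00000430), a gene of the ventral anterior homeobox family, the peak at I:9722339–9722594 had a signal value of 92.0, rank 672. It had 62.4 in replicate 2, and the strongest candidate of replicate 1 at the gene (40.5), 35 bp away, was below that list's threshold. This summit lay 4702 bp upstream of ceh-5 but 249 bp from the start of eat-16 and inside ocrl-1. The gene ceh-45 (WBGene00022837), the goosecoid homolog, was, besides cux-7, the single member whose conservative peak lay nearest to its own start. That peak, at I:1124935–1125190 and 3261 bp upstream, had a signal value of 85.6 and rank 758, with 57.1 in replicate 2 and a candidate of 31.0 below the threshold in replicate 1. A further candidate at ceh-45 lay 43 bp upstream of the start, with a signal value of 66.0 and an IDR of 0.0335. With every summit given to its nearest start alone, 2 of 71 members, cux-7 and ceh-45, kept a peak, against 4.69% of all genes.

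**Figure D1:**
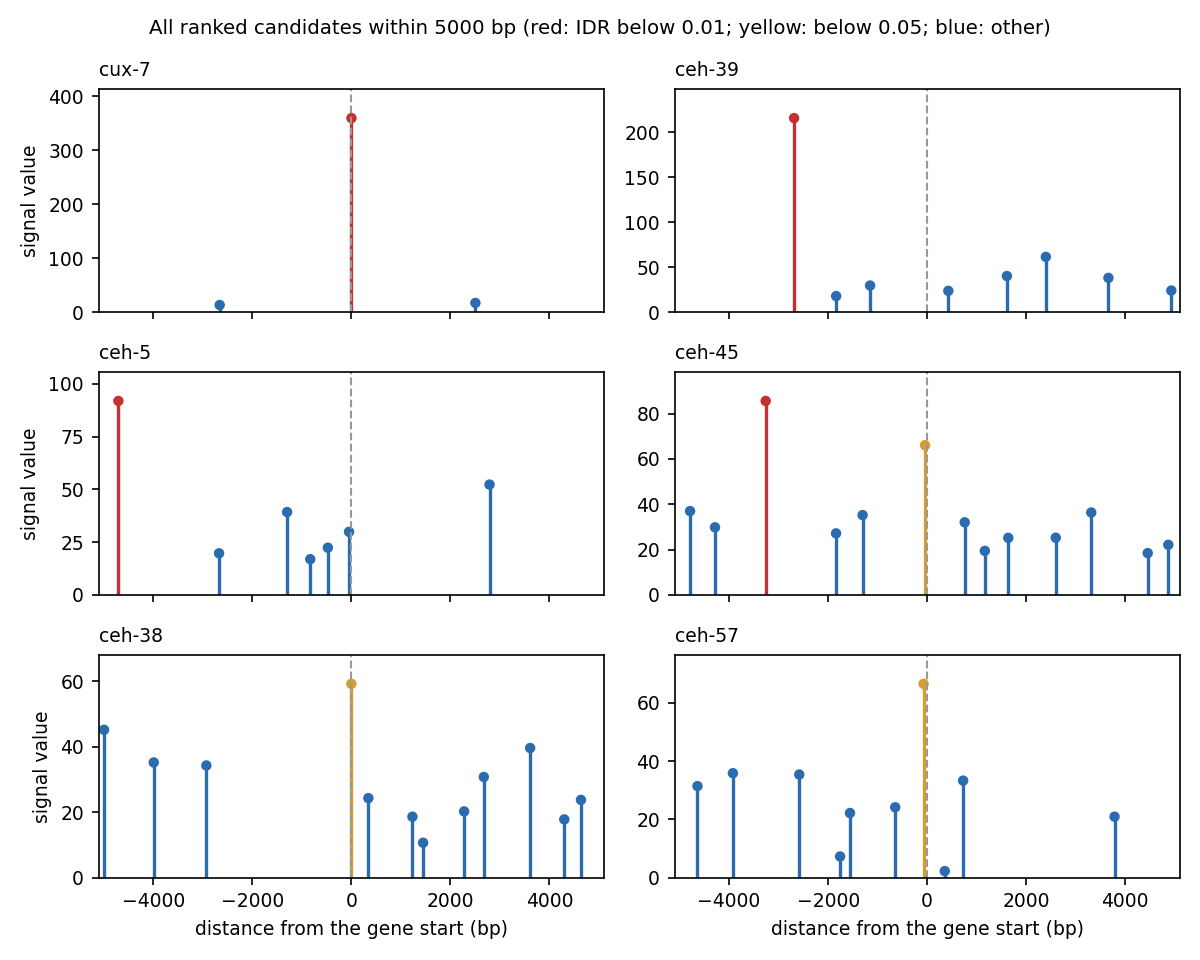
All ranked candidates within 5000 bp of the starts of 6 members; the x axis is the distance from the gene start in bp (upstream negative) and the y axis the signal value, on a separate scale in each panel. At cux-7 one candidate (360) stands at the start with values below 20 beside it, at ceh-39 and ceh-5 the tallest lies upstream, and at ceh-45 the peak upstream (85.6) is joined by a candidate at the start (66.0).

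Candidates below the threshold were read from the ranked list behind the conservative one, called the pooled ranking here, which holds 66355 regions, and from the own ranking of each replicate. The values of a gene are those of its strongest candidate in each ranking, and these can be different regions. Of the 71 members 68 had a candidate within 5000 bp, in 65 distinct regions, and mec-3, ceh-75 and ceh-40 had none. The pairs ceh-57 and ceh-58, ceh-30 and ceh-31, and ceh-82 and ceh-83 share their strongest candidate. The median signal value of the strongest candidate was 45.7, with quartiles of 37.3 and 54.4, against 44.4 (36.7 and 56.0) over all protein-coding genes. A percentile gives the percent of all 19973 genes with a weaker strongest candidate, and the median over the members was 52.3. In replicate 1 the median signal value was 19.7 for the members and 20.6 for all genes (median percentile 47.2), and in replicate 2 it was 30.5 and 29.5 (57.4). The members thus sat near the middle of all genes in both replicates, a little below it in one and a little above it in the other. Ranked among all genes, 17 members were in the top 25% and 11 in the bottom 25%. Without cux-7 the top 25% held 16. An IDR below 0.05 was reached by 9 of 71 (12.7%), or 8 of 70 (11.4%) without cux-7, against 16.9% of all genes. The 9 were the 5 genes above, ceh-57, ceh-58, ceh-91 and ceh-38.

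**Figure D2:**
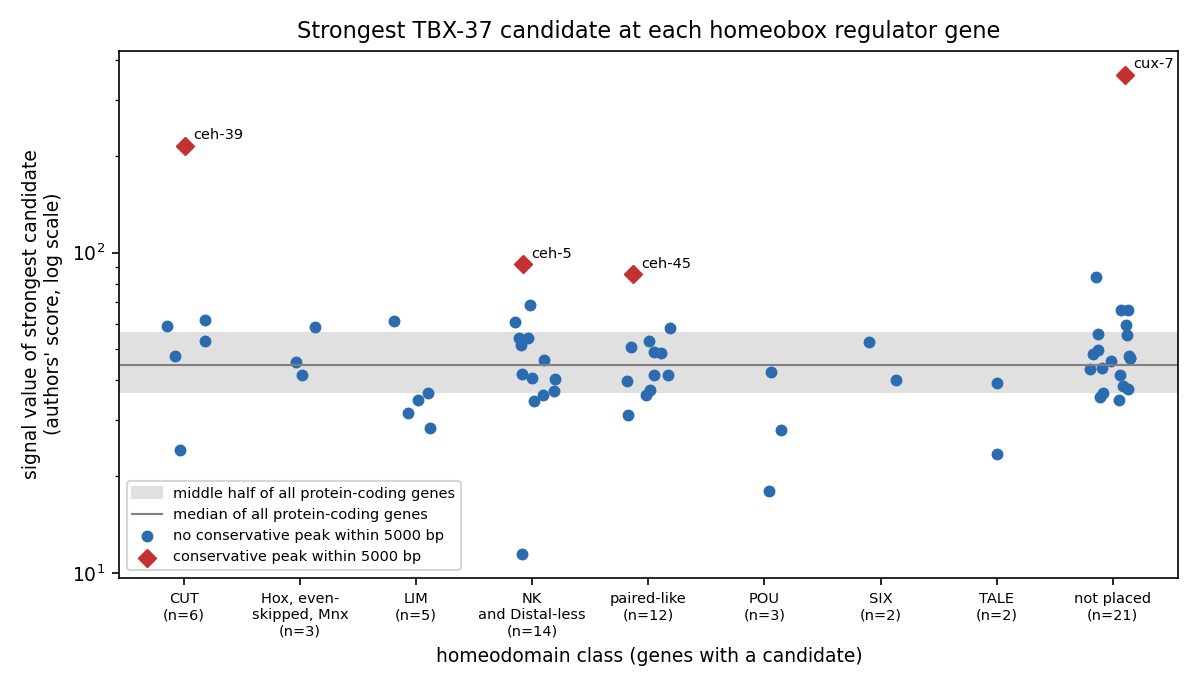
Signal value of the strongest candidate (y axis, log scale) for the 68 members with one, by homeodomain class (x axis), with the median and the interquartile range of all protein-coding genes as a line and a band. The 4 members with a conservative peak, from 85.6 to 360, stand above the band, and apart from ceh-14 (61.0) the LIM, POU and TALE genes lie below the median line.

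Among the 6 CUT genes the median signal value was 56.1, the highest of the classes, at a median percentile of 77.2. It is given as a description, since the genes are few and not independent. The genes ceh-39, ceh-21 and ceh-41 lie together on the X chromosome. The strongest candidate of ceh-41 (53.1) is also a candidate of ceh-21, 2338 bp past its start, and the value of ceh-39 is that of the tRNA summit. Besides ceh-39, ceh-38 had a candidate 2 bp inside its start with a signal value of 59.2, and values of 26.3 in replicate 1 and 40.2 in replicate 2 within 8 bp of each other. Its IDR was 0.0107 in the ranking behind the conservative list and 0.592 in that behind the other series-wide list. For ceh-21 the values were 61.5 in the pooled ranking, 25.8 in replicate 1 and 40.3 in replicate 2, where the summits of the replicates lay 753 bp apart. At the low end ceh-49 had 24.2. The candidates of ceh-38, ceh-41 and ceh-49 were picked out after their values had been seen.

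In the NK and Distal-less group 1 of 14 genes, ceh-5, had a conservative peak and the median signal value was 43.9. At ceh-19, a regulator of the pharyngeal neuron MC, the strongest candidate had 68.6 in the pooled ranking and 57.1 in replicate 2 at the same summit, with an IDR of 0.797 in the pooled ranking, while in replicate 1 the strongest, 1627 bp away, had 17.3. The candidate of ceh-63 had 60.7, with 18.3 in replicate 1 and 35.7 in replicate 2. At ceh-43, the Distal-less homolog, the values were 40.2 in the pooled ranking, 22.1 in replicate 1 and 36.3 in replicate 2. For ceh-51, a mesoderm regulator, they were 41.8, 18.2 and 29.9, and for ceh-16, the engrailed homolog that acts in epidermal seam cells, 51.6, 21.1 and 29.1. The strongest candidate of ceh-27 had 36.05 in the pooled ranking, 4652 bp past the start, and a different one on the upstream side had 25.4 in replicate 1, with none in replicate 2. The lowest value among all members with a candidate was 11.5, at ceh-28, a gene of the pharyngeal neuron M4, which had no candidate in either replicate's own ranking.

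The 12 paired-like genes had 1 peak, that of ceh-45, and a median signal value of 45.2. At ceh-10, which acts with ttx-3 in the interneuron AIY, the values were 58.1 in the pooled ranking, 30.5 in replicate 1 and 21.2 in replicate 2. For unc-42, a regulator of command interneurons, they were 52.97, 24.4 and 27.005, and for unc-30, the Pitx homolog of GABA motor neurons, 49.1, 21.9 and 42.3. For unc-4, which sets the inputs of motor neurons, they were 41.4, 16.9 and 29.2. At vab-3, the Pax6 homolog, they were 39.6, 19.9 and 25.3, and at ceh-37, an Otx homolog, 36.1, 14.03 and 38.5. None of these 6 genes had an IDR below 0.05 in the pooled ranking, while unc-42 had 0.0491 in that of replicate 1, and the summits of the replicates lay more than 200 bp apart at all 6.

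Among Hox, even-skipped and Mnx homologs, ceh-13, the labial homolog of the anterior body, had 45.5 in the pooled ranking, 12.8 in replicate 1 and 32.6 in replicate 2, at places 10 bp apart. The even-skipped homolog vab-7 had 58.5, 25.3 and 37.3, at places 5208 bp apart. The head development gene ceh-32, of the sine oculis class like ceh-33, had 52.7, 31.0 and 33.96. Its IDR was 0.0594 in the pooled ranking and 0.397 in that behind the other series-wide list, and the replicates' summits were 637 bp apart.

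The LIM, POU and TALE genes, 12 in all, had no peak in any list. The LIM median was 34.6 over the 5 genes with a candidate, and the median percentile over all 6 was 23.5. Of the LIM genes, ceh-14 is the Lhx3 homolog of several sensory and interneurons. It had 61.0 in the pooled ranking, 27.7 in replicate 1 and 30.5 in replicate 2. Its IDR was 0.0957 in the pooled ranking and 0.819 in that behind the other series-wide list. The replicates' summits were 684 bp apart. The vulval and neuronal regulator lin-11 had 36.6, 16.3 and 25.9. The AIY regulator ttx-3 had 28.4 and 15.4 in replicate 1, with no candidate in replicate 2. The touch neuron regulator mec-3 had a candidate in replicate 1 alone, at 18.1. The POU median was 28.0, and unc-86, which acts in many neuron classes, had 42.3, 18.7 and 24.4, with ceh-6, a gene of the excretory cell and of neurons, at 18.004, 13.8 and 26.7. Among TALE genes ceh-20, the Pbx homolog and Hox cofactor, had 39.2, 28.4 and 22.2, ceh-60, which controls yolk genes, had 23.6, 19.8 and 24.1, and ceh-40 had 18.4 in replicate 1 alone. With 3 to 6 genes a class, these medians are given as a description.

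The 22 genes not placed in a class, cux-7 among them, had a median of 46.8 over the 21 with a candidate. Their only conservative peak was that of cux-7. The neighbours ceh-57 and ceh-58 share a candidate 73 bp upstream of ceh-57, between the genes, with a signal value of 66.4 and an IDR of 0.0313. In both replicates it lay at the same place, within 1 bp, with 24.9 in replicate 1 and 33.2 in replicate 2. The strongest candidate of ceh-91 had 59.5 in the pooled ranking and 27.1 in replicate 1 at nearly the same place, and in replicate 2 one 766 bp from the latter had 30.6. The pooled one had an IDR of 0.0431 in this ranking and 0.0617 in that behind the other series-wide list. The gene ceh-75 had a candidate in the own rankings alone, 16.2 in replicate 1 and 14.3 in replicate 2.

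The strongest candidates seldom lay at the same place in both replicates. Their summits were within 200 bp of each other at 16 of 71 members (22.5%), against 23% of all genes. Besides cux-7 (3 bp), ceh-39 (6 bp), ceh-5 (35 bp) and ceh-45 (45 bp), these were ceh-57 and ceh-58 (1 bp), ceh-38 (8 bp), ceh-13 (10 bp), ceh-82 and ceh-83 (19 bp), ceh-23 (23 bp), ceh-31 (48 bp), ttx-1 (61 bp), ceh-17 (63 bp), ceh-63 (156 bp) and ceh-99 (193 bp). All 4 genes with a conservative peak were therefore among them, and the same 4 were the members among the 10 strongest in both replicates. The conservative list keeps regions with a low IDR over both replicates. Agreement of these 4 in place and rank thus follows in part from that filter. Across the 65 members with a candidate in both, the rank correlation of signal values (Spearman) was 0.105 and the Pearson correlation of their log2 values 0.620. Without cux-7 these were 0.0626 and 0.3997 over 64 genes, and over 17306 protein-coding genes 0.478 and 0.757. These correlations are across genes, which share the library and its depth and in part their candidates. Single genes moved far: ceh-33 was at percentile 87.1 in replicate 1 and 30.4 in replicate 2, ceh-10 at 87.1 and 20.7 and ceh-9 at 84.5 and 16.2, while ceh-19 was at 30.6 and 91.0 and ceh-37 at 15.3 and 80.1. Of these, ceh-33 and ceh-9 were picked out after their values had been seen.

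**Figure D3:**
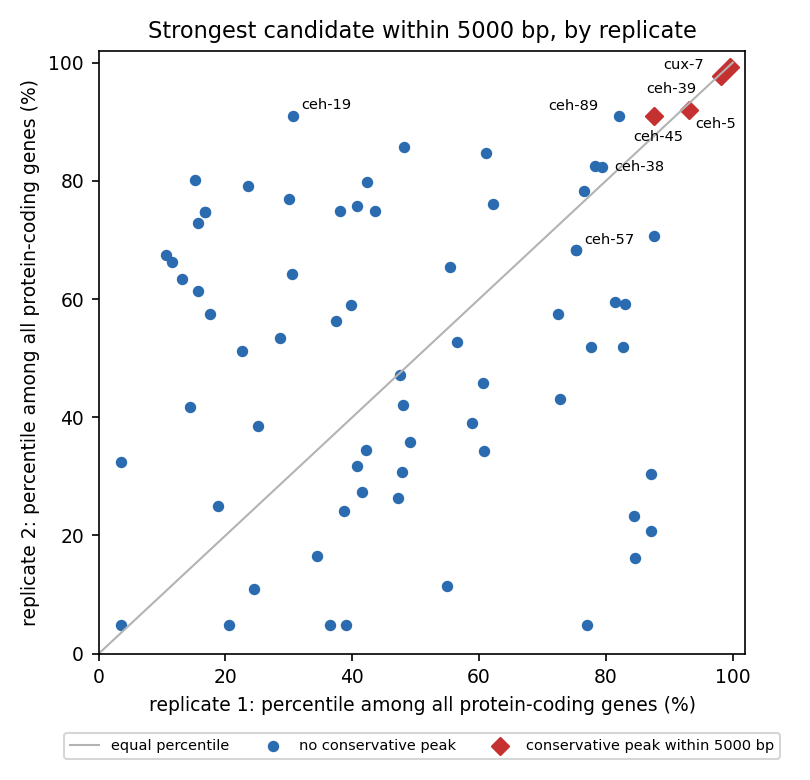
Percentile of each member's strongest candidate among all protein-coding genes in replicate 1 (x axis) and replicate 2 (y axis), with genes without a candidate at their lowest value. The 4 members with a conservative peak lie in the upper right corner, which follows in part from the filter on both replicates behind that list. The others are spread on both sides of the line of equal percentile.

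The upstream gap from a member to the next gene had a median of 2373 bp, against 937 bp over all genes, 9991 bp in the other homeobox genes outside the naming rule and 1590 bp in the nuclear hormone receptor genes. A median of 1 other protein-coding start lay within 5000 bp, against 2 over all genes, 0 in the other homeobox genes and 2 in the receptor genes. No difference was tested. The number of candidates within 5000 bp had a median of 7 for the members and for all genes. The distance from the start to the nearest conservative summit had a median of 29612 bp against 36108 bp, and ran from 5 bp at cux-7 to 450379 bp at ceh-84. Of the 68 strongest candidates 22 (32.4%) were in promoters, from 1000 bp upstream to 200 bp past any protein-coding start, against 40.9% of those of all genes. Another 19 (27.9%), against 17.96%, lay outside promoters and protein-coding genes, among them the summits inside tRNA genes at ceh-39 and ceh-89. In introns there were 16 (23.5%), against 19.6%, and in coding exons 7 (10.3%), against 18.3%. Untranslated regions held 4 (5.88%), against 3.25%. Within 500 bp of the member's own start there were 8 (11.8%), against 14.5%. A small RNA gene lay within 100 bp of 3 strongest candidates (4.41%), against 4.15%: the tRNA genes at ceh-39, ceh-89 and ceh-12, where a tRNA-Arg gene stood beside a candidate of 41.5. The B box core was in the windows of these same 3, against 1.76% of the windows of all genes, a search added after the tRNA genes had been seen.

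**Figure D4:**
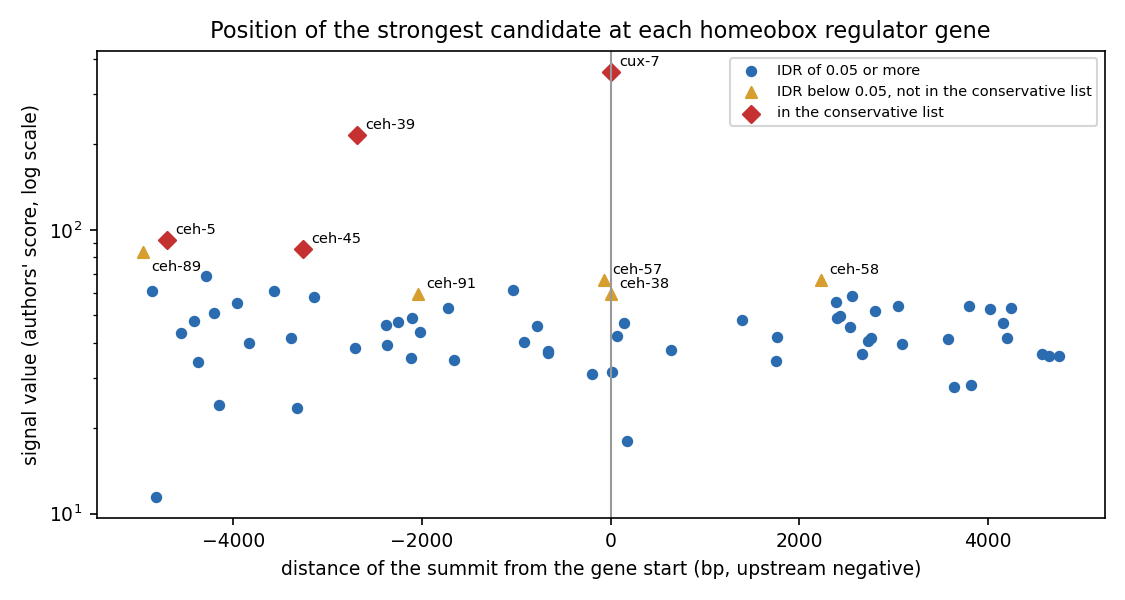
Distance of the strongest candidate from the gene start in bp (x axis, upstream negative) against its signal value (y axis, log scale) for the 68 members with one. Except at cux-7, the conservative peaks lie 2688 to 4702 bp upstream, and ceh-57 and ceh-38 have candidates with an IDR below 0.05 at the start itself.

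In the promoter window, from 250 bp before to 50 bp past the start, AGGTGTGA was in 4 of 71 members (5.63%) against 0.781% of all genes, namely ceh-45, ceh-16, ceh-54 and ceh-7. The other homeobox genes outside the naming rule had it in 0 of 31. Of the 4 genes, ceh-54 and ceh-7 were picked out after their values had been seen. The shorter GGTGTG, which the longer word contains, was in 14 (19.7%) against 7.60%, GGGCGG in 15 (21.1%) against 7.83%, GAGAGA in 25 (35.2%) against 21.8% and TAATTA in 11 (15.5%) against 15.5%. The other homeobox genes had GGTGTG in 2 (6.45%), the GC box in 8 (25.8%), the repeat in 11 (35.5%) and the homeodomain site in 4 (12.9%). The promoter windows had a median GC content of 37% against 34.3%, which moves with the words rich in G and C, and its part in the shares was not tested. In the windows of 100 bp each side of the strongest candidates AGGTGTGA was in 0 of 68, against 0.470% of those of all genes, a share so low that a count of 0 says little about the members. The other homeobox genes had it in 2 of 31 such windows. GGTGTG was there in 8 (11.8%) against 7.15%, among them ceh-45, unc-42, ceh-43 and ceh-20. The 8 also include ceh-30 and ceh-31, which share their candidate, so this window is counted for both genes. TAATTA was in 3 (4.41%) against 6.76%, at vab-7, vab-3 and ceh-37. GGGCGG was in 7 (10.3%) against 7.14% and GAGAGA in 10 (14.7%) against 15.9%. The window of ceh-43 held 3 of these words, the T-box core, the repeat and the GC box.

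In the pooled ranking, candidates at the 4 promoter words were weak except at ceh-45. There the word lay 125 bp upstream of the start, and the nearest candidate, 82 bp away, was the one of 66.0 with an IDR of 0.0335 described above. The replicates' nearest candidates had 22.5 in replicate 1, 125 bp away, and 42.8 in replicate 2, 29 bp away. Their IDRs in the own rankings were 0.727 and 0.133, neither below 0.05. At ceh-16 the word shown above lay 120 bp upstream, and the candidate 72 bp away had 34.9 and an IDR of 0.776. At ceh-7 the word lay 86 bp upstream, with a candidate 1 bp away that had 22.8 and an IDR of 0.635. In replicate 2 one 19 bp away had 17.3, while the nearest of replicate 1 was 11746 bp away. At ceh-54 the word lay 26 bp past the start, and the nearest candidate of the pooled ranking (29.1) was 2580 bp away. In replicate 1 one 172 bp away had 18.5 and an IDR of 0.916, and the nearest of replicate 2 (23.3) was 1108 bp away. A match of these letters is a description and no measured binding site.

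Other families of regulators had shares of peaks whose intervals overlapped that of the members. Other homeobox genes outside the naming rule had a conservative summit within 5000 bp at 2 of 31 (6.45%, interval 0.791 to 21.4), which were the LIM gene lim-6 (103) and ceh-2 (80.9, at a tRNA gene). The nuclear hormone receptor genes, ligand-regulated transcription factors named nhr-, had one at 13 of 269 (4.83%, interval 2.60 to 8.12). The difference between the families was not tested. With the limit at 10000 bp 10 of 71 members had a summit (14.1%, interval 6.97 to 24.4) against 19.9% of all genes. The 6 genes added were ceh-8 (signal value 605, at a small nucleolar RNA gene 8615 bp away), lim-7 (239, likewise, 9573 bp), ceh-21 (216, the tRNA summit of ceh-39), ceh-19 (152), ceh-6 (143) and ceh-20 (120). By chromosome, 2 of 9 members on chromosome I had a conservative summit, against 16.5% of all genes there. On III 1 of 11 had one, cux-7, against 14.4%, and on X 1 of 20, against 12.5%. None of 14 on II (against 12.4%), 6 on IV (10.7%) and 11 on V (7.71%) had one.

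**Figure D5:**
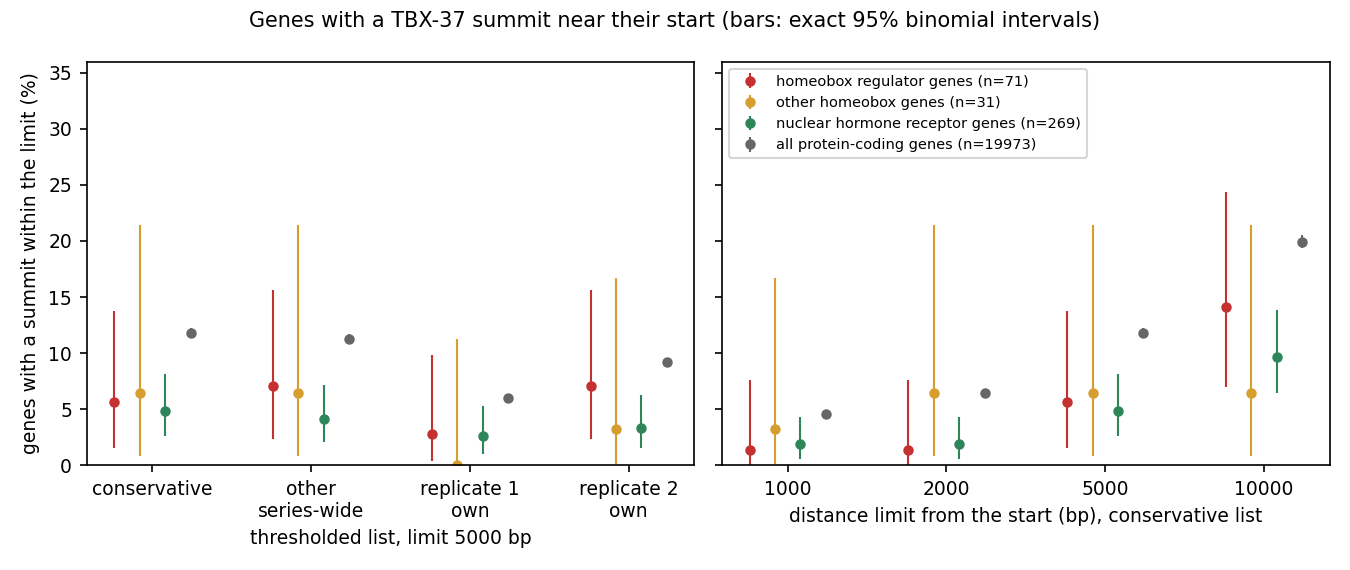
Percent of genes with a TBX-37 summit near their start (y axis), for 4 peak lists at 5000 bp (left) and for 4 distance limits in the conservative list (right); bars are exact 95% binomial intervals over genes. The homeobox genes lie below all protein-coding genes in each list and at each limit, at 5.63% against 11.8% in the conservative list at 5000 bp, and the intervals of the 3 regulator families overlap.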

How the data were processed

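The deposited peak lists of 1 group with 2 biological replicates were used unchanged. Per the text files deposited beside them, the authors called peaks on ce11 with a control, which was not used here. Which aligner and caller made them is not given in the sources used here. Signal values are the authors' own for each region. The deposited score rescales the authors' IDR to at most 1000. Candidates' IDR was computed from its −log10, which the authors deposited. The summit offset that the authors wrote set each position. The series-wide ranked lists hold 16 further per-sample columns in all, not used here. Depth is unknown, since these files give regions and no reads.

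Starts came from Ensembl release 115 and products from RefSeq. Names were joined and counts made with Python 3.11.15, pandas 2.3.3, NumPy 2.4.6 and SciPy 1.17.1, tested on simulated data. Members, classes and motifs were chosen with earlier results of these data known, and no test was run over them. Named genes were those with a summit in any thresholded list, the 12 strongest and the 6 weakest, those among the 10 strongest in both replicates, and known regulators whatever their values. Any other member named was picked with its values in view. Intervals are exact (Clopper-Pearson) at 95%. Alternatives were other distance limits, lists, starts and scores, each replicate alone, and leaving out small RNA genes or cux-7. Nothing says whether the replicates came from separate cultures beyond the label biological. Genes sharing a candidate are not independent.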

Additional observations from a re-analysis of the deposited data

How the results depend on the processing

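Of the 71 members 1 to 10 had a conservative summit as the distance limit moved. The count was 1 at 1000 bp, 1 at 2000 bp (cux-7 in both), 4 at 5000 bp and 10 at 10000 bp. Without cux-7 it was 0 of 70 at 1000 and 2000 bp and 9 of 70 at 10000 bp. With the nearest start alone the count was 2, cux-7 and ceh-45. Taking the own list of a single replicate gave 2 to 5, with the lower value for replicate 1 alone. The count was 5 in the other series-wide list, 4 with the starts of any transcript and 4 with the highest score, 3 without summits at small RNA genes and 3 without cux-7. The latter was chosen after seeing the data. Genes with a summit in the own lists of both replicates were 2, cux-7 and ceh-39, against 5.28% of all genes. That count was 1 at 2000 bp, 8 at 10000 bp and 1 without cux-7. The cause of these shifts beyond the wider or narrower limit was not tested. The median percentile ran from 47.2 to 57.8 over all settings, against 52.3 in the main one. Every setting differed from the main one by less than the SD of the replicate medians (7.25). Those medians, 47.2 and 57.4, are themselves among the settings, so this SD is no independent check. The count of genes with candidates at the same place ran from 12 to 16. Of 140 recomputed gene percentiles 86 stayed within the replicate spread of that gene and 54 moved by more. That spread is the SD of the gene's values in the 2 replicates, which are themselves among the 140. Genes whose replicates disagree thus stay within it easily, and the counts are no measure of stability. For ceh-27, at 30.2, a value of 77.0 in replicate 1 counted as within the spread. For cux-7, at 99.4, a value of 99.8 at 2000 bp counted as moved. No paired analysis was possible because there is a single group. Signal in these lists has no read counts behind it, so weak binding cannot be told apart from background.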

Other observations

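The ceh-39 and ceh-21 genes lie next to each other on the X chromosome and share their surroundings. Within 5000 bp of ceh-39 there were 8 ranked candidates, with the tRNA peak at 216 and all others at 61.5 or less. At cux-7 there were 3 candidates, with 360 at the start and 13.2 and 17.05 elsewhere, and at ceh-45 there were 13, from 18.5 to 85.6. A second candidate of ceh-89, 1163 bp upstream, had a signal value of 56.4 and an IDR of 0.0303.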
